A study of Homo sapiens with 36 samples.

Results

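Raising and lowering MEIS2 in human neural stem cells were compared gene by gene. The effect of activation is the change from ctrl-OE to MEIS2-OE, and the effect of knockout is the change from ctrl-KO to MEIS2-KO. A gene entered the comparison if it had at least 10 counts summed over these 24 libraries, which 19125 of the 28516 genes in the table did. At that limit, 144 genes had exactly 10 counts and were kept, and 144 had 9 counts and were left out. In total 24 of the 36 libraries of the series belong to this comparison, 6 in each of 4 groups. The rest are MEIS1-OE and MEIS1-KO, 6 libraries each, in which MEIS1 was activated or cut instead. They entered the same statistical fit, so they share in the estimate of the spread behind every p-value.

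All libraries came from a single commercial line of human neural stem cells (hNSC), cultured on Geltrex-coated dishes and collected 48 h after lentiviral infection. MEIS2-OE cells (labelled CRISPRa_MEIS2) received 3 lentiviruses that together carry a guide against MEIS2, a Cas9 without cutting activity fused to the activator VP64, and the MS2-bound activators p65 and HSF1. ctrl-OE cells (CRISPRa_ctrl) received the same machinery with a guide that has no target. MEIS2-KO cells (CRISPR-KO_MEIS2) received lentiCRISPRv2, which carries cutting Cas9, with the guides MEIS2-g2 and MEIS2-g5 mixed 1:1, and ctrl-KO cells (CRISPR-KO_ctrl) received lentiCRISPRv2 with a guide that has no target. Knockout cells were therefore a mixed population with cut alleles rather than a clone, and their control had no targeted cut in the genome. Loss of MEIS2 and the cutting itself cannot be told apart in the knockout arm. The activation arm used a single MEIS2 guide. Effects of raised MEIS2 and of that guide acting at other sites therefore cannot be told apart there either. The labels do not say whether the 6 libraries of a group came from separate cultures, so p-values measure the spread between these libraries, which may be technical.

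MEIS2 is a transcription factor of the TALE homeodomain family, which also holds MEIS1, the PBX proteins and the PKNOX proteins. MEIS and PBX proteins bind DNA together, and the core sequence preferred by MEIS proteins is TGACAG. In the embryonic forebrain MEIS2 is known as a factor of the lateral ganglionic eminence, the source of striatal neurons, and it acts with PAX6 in neurogenesis.

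The guides of the knockout arm fix where the gene was cut, so they are shown here 5′ to 3′ with the PAM, the bases next to the target that Cas9 requires, in capitals.
MEIS2-g2: cccactcagcaggcaccccaGGG
MEIS2-g5: gttctgatgtcaggataccaAGG
Each guide had 1 perfect match on chromosome 15 of GRCh37. MEIS2-g2 lies on the minus strand at chr15:37376024-37376046, and its cut falls in exon 7 of the 12 exons of the canonical MEIS2 transcript, which is coding sequence in 16 of 38 annotated transcripts. MEIS2-g5 lies on the plus strand at chr15:37376084-37376106. Its cut falls in the intron before that exon, 14 bases from the exon and 71 bases from the cut of MEIS2-g2. MEIS2 itself spans chr15:37181405-37393500 on the minus strand.

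The total count of the 24 libraries ranged from 15429985 to 22940493 reads. Libraries of the same group differed by more than counting noise in all 60 pairs, with a chi-square per degree of freedom between 2.90 and 33.2, so none was treated as a copy of another. Replicate 6 of ctrl-OE and replicate 2 of ctrl-KO stood apart from the rest of their groups. The pairs with the first gave 16.7 to 33.2, beside 3.72 to 9.91 for the other ctrl-OE pairs, and the pairs with the second 8.40 to 22.7, beside 2.90 to 5.91. The controls were far apart: 10107 genes, 52.8% of those tested, differed between ctrl-OE and ctrl-KO at an adjusted p under 0.05 (edgeR quasi-likelihood test with Benjamini-Hochberg adjustment), so effects are taken only within an arm. Levels are given as CPM (counts scaled to library size), which do not correct for transcript length. The group means of the stem cell markers NES, SOX2 and VIM were 909 to 1716, 114 to 300 and 1992 to 3066 CPM. The stem cell gene NR2E1 stayed under 0.1 CPM in every group mean, as did NEUROG2 and NEUROD1, which mark neuronal commitment. The astrocyte marker GFAP reached at most 0.234 CPM. The pluripotency-associated gene LIN28A was abundant, with group means of 297 to 492 CPM, whereas POU5F1 and NANOG did not exceed 0.155 and 0.0487 CPM.

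MEIS2 was raised in every activation library and lowered in every knockout library. The ctrl-OE libraries held 20.5 to 24.1 CPM (median 22.8) and the MEIS2-OE libraries 793 to 852 (median 824). The log2 fold change was 5.19 ± 0.0549 (SE, n = 6 against 6, adjusted p = 1.01e-41, edgeR quasi-likelihood test), or 36.5-fold. The ctrl-KO libraries held 23.5 to 27.4 CPM (median 26.4) and the MEIS2-KO libraries 10.5 to 13.4 (median 12.2). Knockout lowered the transcript by 53.2%, a log2 fold change of -1.10 ± 0.0546 (SE, adjusted p = 2.54e-17 by the same test). The step up was thus much larger than the step down on the log2 scale, and the sum of both effects differed from 0 (4.09 ± 0.0744, adjusted p = 4.99e-33). A transcript can persist after its coding frame is broken, so the counts do not measure how much protein was lost. The paralog MEIS1 did not pass the test in either arm, with log2 fold changes of -0.08 ± 0.0725 (adjusted p = 0.963) after activation and -0.18 ± 0.0706 (adjusted p = 0.105) after knockout.

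Across the transcriptome, the smaller change in MEIS2 came with the larger number of called genes. At an adjusted p under 0.05, activation changed 267 genes, 1.40% of those tested, of which 212 (1.11%) were higher and 55 (0.288%) lower. Knockout changed 2007 genes, 10.5% of those tested, of which 808 (4.22%) were higher and 1199 (6.27%) lower. With the additional limit of an absolute log2 fold change above 0.58, 98 genes (0.512%) remained for activation and 314 (1.64%) for knockout. The majority of knockout calls then turned, with 239 higher and 75 lower, and with RLE scaling of all libraries 880 were higher and 932 lower. Without replicate 6 of ctrl-OE and replicate 2 of ctrl-KO, 243 genes were called for activation and 1403 for knockout, 656 higher and 747 lower. Leaving out a replicate number moved the counts further, to 956 knockout calls without number 5, 1217, 1212 and 1282 without numbers 1, 2 and 4, and 164 activation calls without number 4 or 5. Most knockout calls were small: the median absolute effect of the 2007 genes was 0.28 on the log2 scale, against 0.42 for the 267 genes called after activation.

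Both arms together called 71 genes. That is 26.6% of the activation calls, beside 10.5% of all genes called by knockout, and 3.54% of the knockout calls, beside 1.40% of all genes called by activation. Opposite directions were seen in 34 genes, of which 28 rose with activation and fell with knockout and 6 did the reverse. The same direction was seen in 37 genes, of which 30 rose and 7 fell in both arms. Of the 212 genes raised by activation, 13.2% were lowered by knockout, beside 6.27% of all genes, and 14.2% were raised by knockout, beside 4.22% of all genes. Of the 55 genes lowered by activation, 10.9% were raised and 12.7% were lowered by knockout. The arms share no library, but all groups share 1 estimate of the spread in the fit. Why these shares lie above those of all genes was not tested. The counts depended on single replicate numbers, each of which stands for 1 library per group. Without the libraries numbered 5 they were 12 and 4 for the opposite directions and 12 and 0 for the same direction, and without those numbered 4 they were 19, 3, 11 and 0. Without the 2 control libraries that stood apart they were 25, 2, 26 and 4. Which kind was more numerous also changed with the refit. Opposite directions numbered 16 and same directions 29 without the libraries numbered 1, 37 and 52 by DESeq2 and 41 and 54 with a replicate block, but 22 and 11 without those numbered 4 and 16 and 12 without those numbered 5.

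Over all 19125 genes the log2 fold changes of the arms had a Pearson's r of -0.0029 and a Spearman's rho of 0.0074. The value of r was 0.0653 over the 15194 genes that pass edgeR's filterByExpr, 0.191 over the 266 activation calls other than MEIS2 and 0.162 over the 2007 knockout calls. The coefficients are a description across genes, which are not independent replicates. The signs were opposite in 50.9% of all genes, in 51.5% of the 266 activation calls other than MEIS2 and in 40.6% of the 2007 knockout calls. The 808 genes raised by knockout had a median activation effect of 0.02, and the 1199 lowered ones a median of -0.02, on the log2 scale. As a mean over the 808 genes, the MEIS2-OE libraries lay between -0.083 and 0.118 in log2 CPM relative to the ctrl-OE mean, which overlapped the ctrl-OE libraries at -0.071 to 0.076. Genes raised by activation, MEIS2 left out, lay between -0.030 and 0.115 in MEIS2-KO and between -0.055 and 0.033 in ctrl-KO. Here 5 of the 6 MEIS2-KO libraries, at 0.039 to 0.115, lay above every ctrl-KO library, and replicate 1 of MEIS2-KO lay within the ctrl-KO range.

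**Figure D1:**
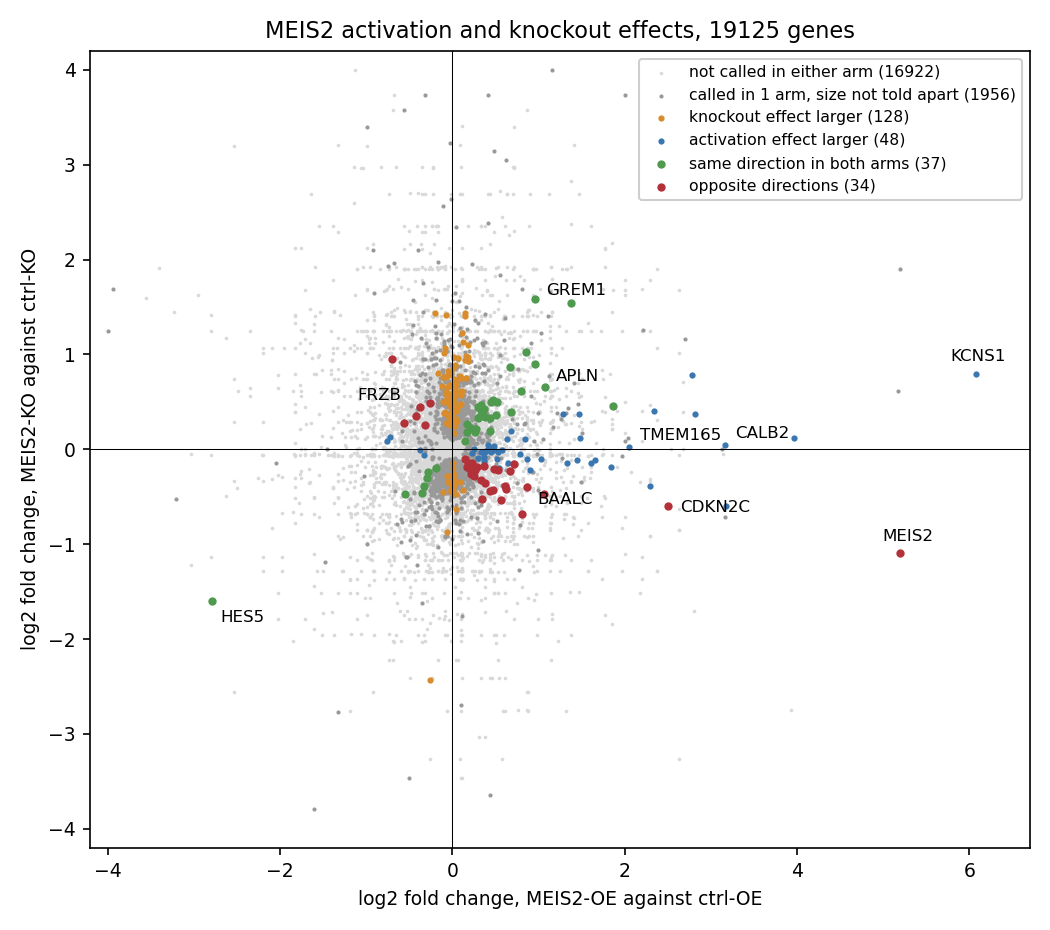
Each point is 1 of 19125 genes, with its log2 fold change after MEIS2 activation on the x axis and after MEIS2 knockout on the y axis (6 against 6 libraries each, y values beyond 4 in size drawn at the edge). Colours give the class from the tests of both arms, and the 34 genes of opposite direction (upper left and lower right) are about as many as the 37 of the same direction.

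Being called in 1 arm and not in the other does not show that the arms differ, so the difference and the sum of the arms were tested as well. The difference (activation effect minus knockout effect) passed in 523 genes, 2.73% of those tested, and the sum in 1020 genes (5.33%). A larger effect in 1 arm, defined as a call in that arm and none in the other, with both the difference and the sum passing and the larger effect in the called arm, was found for activation in 48 genes (44 raised, 4 lowered) and for knockout in 128 genes (106 raised, 22 lowered). Of the 48, 10 had an unadjusted p under 0.05 in the knockout arm by edgeR and 2 were called there by DESeq2, and of the 128, 1 had such a p in the activation arm and none was called there by DESeq2. Without the libraries numbered 5 the difference passed in 231 genes and the sum in 515, and the classes held 32 and 41 genes. The class of 128 also fell to 66, 80, 52 and 70 genes without those numbered 1, 2, 4 and 6. A further 148 genes called by activation only and 1808 called by knockout only did not meet this rule, so their effects in the arms could not be told apart in size. In the other arm, the 48 activation genes had a median log2 fold change of -0.02 and the 128 knockout genes a median of 0.00.

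Among the 28 genes that rose with activation and fell with knockout, the largest activation effect after MEIS2 itself was that of CDKN2C, which encodes p18-INK4c, an inhibitor of the cyclin D kinases CDK4 and CDK6. CDKN2C lies at chr1:51426417-51440306 (GRCh37, plus strand). It was at 4.79 to 5.86 CPM (median 5.26) in ctrl-OE and at 26.4 to 32.5 (median 30.4) in MEIS2-OE, and at 4.78 to 8.04 (median 6.66) in ctrl-KO and 3.75 to 4.83 (median 4.49) in MEIS2-KO. All MEIS2-OE libraries lay far above ctrl-OE, while in the knockout arm the ranges overlapped slightly, with the lowest ctrl-KO library just under the highest MEIS2-KO library. The log2 fold changes were 2.50 ± 0.0928 (SE, adjusted p = 2.17e-22) and -0.60 ± 0.104 (adjusted p = 1.97e-04), both by the edgeR quasi-likelihood test.

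The promoter of CDKN2C held the MEIS core in 2 copies, and it is shown for that reason, with 2 other promoters of genes called in both arms for comparison. The window runs from 250 bases before to 50 bases after the RefSeq start site (GRCh38.p14), the gene's own strand is given 5′ to 3′, and capitals mark TGACAG or its reverse complement CTGTCA. AFAP1L2 fell with activation and rose with knockout, and TFPI2 rose in both arms.
CDKN2C, chr1:50960495-50960794, plus strand: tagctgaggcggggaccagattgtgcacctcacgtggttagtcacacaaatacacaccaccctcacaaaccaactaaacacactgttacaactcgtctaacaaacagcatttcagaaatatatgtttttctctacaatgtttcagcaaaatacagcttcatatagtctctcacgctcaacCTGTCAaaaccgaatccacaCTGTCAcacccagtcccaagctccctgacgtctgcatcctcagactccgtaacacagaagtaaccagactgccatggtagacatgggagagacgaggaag
AFAP1L2, chr10:114404453-114404752, minus strand: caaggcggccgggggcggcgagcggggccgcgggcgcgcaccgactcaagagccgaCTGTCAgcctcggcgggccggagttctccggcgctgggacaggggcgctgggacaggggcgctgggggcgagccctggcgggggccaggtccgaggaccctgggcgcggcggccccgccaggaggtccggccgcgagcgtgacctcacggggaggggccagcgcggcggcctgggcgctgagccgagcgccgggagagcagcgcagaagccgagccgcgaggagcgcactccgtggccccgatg
TFPI2, chr7:93890704-93891003, minus strand: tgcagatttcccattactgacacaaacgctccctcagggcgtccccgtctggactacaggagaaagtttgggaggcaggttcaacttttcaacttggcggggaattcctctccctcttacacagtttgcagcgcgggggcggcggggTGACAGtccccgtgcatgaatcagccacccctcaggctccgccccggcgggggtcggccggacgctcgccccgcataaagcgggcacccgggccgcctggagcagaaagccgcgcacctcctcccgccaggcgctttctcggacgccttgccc
The CDKN2C copies begin 70 and 50 bases before the start site, both as CTGTCA. A promoter sequence was found for 24 of the 34 genes of opposite direction, and 4 of them (16.7%) held the core on either strand. The share was 17.2% for the same direction (5 of 29) and 13.8% over all 12005 tested genes with a promoter, so both shares were near that background. Over all 35116 RefSeq promoters of this length the share was 15.8%. A match of 6 bases is a description of the sequence and does not show binding.

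SPRY2, SPRED1 and KIT were also among the 28 genes. SPRY2, a Sprouty protein that dampens FGF and ERK signalling, was at 116 to 140 CPM (median 120) in ctrl-OE and 165 to 189 (median 173) in MEIS2-OE. It was at 201 to 210 (median 204) in ctrl-KO and 163 to 187 (median 177) in MEIS2-KO, so the groups did not overlap in either arm. Its log2 fold changes were 0.53 ± 0.045 (adjusted p = 4.65e-11) and -0.22 ± 0.0448 (adjusted p = 0.00149). SPRED1, a related inhibitor of RAS and ERK signalling, changed by 0.25 ± 0.0637 (adjusted p = 0.029) and -0.28 ± 0.0632 (adjusted p = 0.00339). KIT, the receptor tyrosine kinase for stem cell factor, was at 4.50 to 5.17 CPM (median 4.98) in ctrl-OE and 6.5 to 7.82 (median 7.34) in MEIS2-OE, and fell from 7.89 to 8.83 (median 8.18) in ctrl-KO to 4.41 to 6.99 (median 5.81) in MEIS2-KO. No library crossed between the groups within an arm, with log2 fold changes of 0.56 ± 0.0861 (adjusted p = 3.42e-05) and -0.53 ± 0.086 (adjusted p = 7.24e-05).

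ST8SIA4, SPOCK1, PTX3 and TENM3 also rose with activation and fell with knockout. ST8SIA4, the enzyme that builds polysialic acid on NCAM, was at 27.2 to 32.3 CPM (median 30.5) in ctrl-OE against 43.5 to 50.3 (median 46.2) in MEIS2-OE, and at 80.6 to 88.6 (median 82.4) in ctrl-KO against 59.8 to 65.9 (median 62.1) in MEIS2-KO. No library crossed between the groups of an arm, and the log2 fold changes were 0.62 ± 0.0605 (adjusted p = 1.44e-09) and -0.42 ± 0.0586 (adjusted p = 1.03e-05). SPOCK1, the secreted proteoglycan testican-1, rose from a median of 38.4 CPM (32.4 to 44.6) to 57.8 (54.1 to 62.2) with activation and fell from 125 (116 to 133) to 95.4 (88.0 to 102) with knockout. Its log2 fold changes were 0.61 ± 0.0678 (adjusted p = 3.66e-08) and -0.39 ± 0.0655 (adjusted p = 1.31e-04), again without overlap. PTX3, a secreted pentraxin of the innate immune response, changed by 0.33 ± 0.0632 and -0.33 ± 0.0626 (adjusted p = 0.00135 and 6.39e-04), but its activation groups overlapped, with ctrl-OE at 170 to 237 CPM and MEIS2-OE at 225 to 279. TENM3, a teneurin adhesion protein of neuronal wiring, changed by 0.48 ± 0.0613 and -0.21 ± 0.0609 (adjusted p = 8.63e-07 and 0.0197).

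FOXP2, a forkhead transcription factor expressed in striatal neurons, had nearly mirror-image effects. It was at 9.44 to 13.7 CPM (median 10.4) in ctrl-OE and 13.6 to 15.8 (median 14.3) in MEIS2-OE, which gave 0.43 ± 0.093 on the log2 scale (adjusted p = 0.00522). In ctrl-KO it was at 30.4 to 37.2 CPM (median 32.3) and in MEIS2-KO at 21.9 to 27.1 (median 24.5), a log2 fold change of -0.44 ± 0.0867 (adjusted p = 9.85e-04). The knockout groups were separate, and the activation groups overlapped through the highest ctrl-OE library. HK2, the hexokinase of the first step of glycolysis, was at 30.5 to 42.2 CPM in ctrl-OE and 44 to 52.4 in MEIS2-OE, and at 58.0 to 64.4 in ctrl-KO and 40.1 to 44.3 in MEIS2-KO, with log2 fold changes of 0.34 ± 0.0601 and -0.52 ± 0.0599 (adjusted p = 3.09e-04 and 4.01e-07). BAALC, a membrane-associated protein first described in brain and leukaemia, changed by 0.87 ± 0.0561 and -0.40 ± 0.0551 (adjusted p = 1.49e-14 and 1.04e-05), from 50.4 to 56.9 CPM in ctrl-OE to 89.1 to 104 in MEIS2-OE and from 117 to 143 in ctrl-KO to 92.8 to 108 in MEIS2-KO. FAM167A changed by 0.38 and -0.35 (adjusted p = 8.02e-05 and 2.50e-04) and SSFA2 by 0.22 and -0.26 (adjusted p = 0.00504 and 2.41e-04).

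The remaining genes of this class included CAMK2N1, RASSF2, LPHN2, LPAR1, ERLIN1, SIPA1L2, RAVER2, CDH20, LPL, USP10, SLC15A4, STIM2 and ELMOD1. Their range ran from small shifts, such as 0.15 and -0.10 for the deubiquitinase USP10, to larger ones in scarce transcripts, such as 0.81 and -0.68 for the cadherin CDH20, which had 0.54 to 2.76 CPM over all 4 groups. The median effects of the 28 genes were 0.41 for activation and -0.27 for knockout, and activation had the larger effect in 22 of 28. For MEIS2, CDKN2C, BAALC, SPRY2, LPL and STIM2 the sum of the arms also passed, and for each of these 6 the activation effect was the larger. In the other 22 genes the sizes of the effects could not be told apart by the edgeR test, while DESeq2 called the sum for 8 of the 28, and 12 had an unadjusted p under 0.05 by edgeR. Groups did not overlap in either arm for 15 of the 28 genes, beside 0.230% of all genes, but the members were chosen by their calls in the same libraries. MEIS2, CDKN2C and CDH20 passed the fold limit of 0.58 in both arms. MEIS2, ST8SIA4, BAALC, KIT, SPOCK1, CDKN2C, HK2, FAM167A, PTX3, SPRY2 and CAMK2N1 kept both calls in every refit that left out a library number or changed the scaling, the filter, the prior count, the block, the libraries in the fit or the tool, and the other 17 lost a call in at least 1.

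The control level of these genes differed between the systems. Over the 28 genes the median level was 43.7 CPM in ctrl-OE and 86.9 in ctrl-KO, and SPOCK1, for example, had medians of 38.4 and 125 CPM, FOXP2 10.4 and 32.3, and LPL, lipoprotein lipase, 115 and 488. For ST8SIA4, SPOCK1, FOXP2 and LPL every MEIS2-OE library stayed below every MEIS2-KO library, although the direction of change in each arm was opposite. Whether the distance between the control levels has a part in the opposite directions was not tested.

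**Figure D2:**
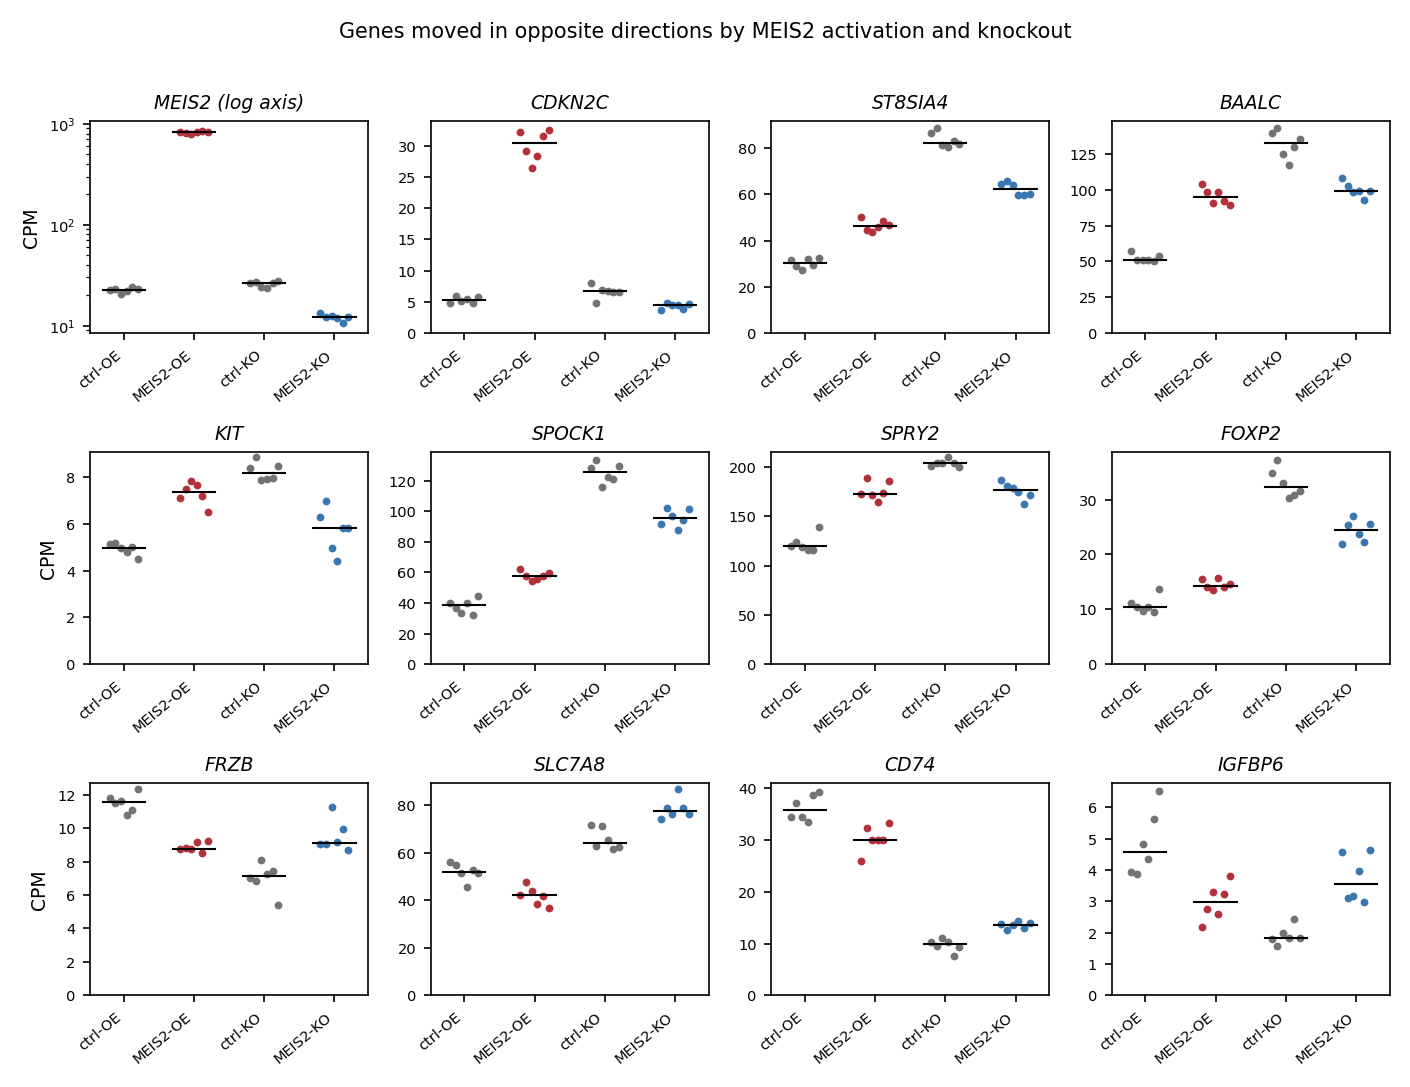
CPM in each of the 6 libraries of ctrl-OE, MEIS2-OE, ctrl-KO and MEIS2-KO (points, with the median as a black line) for 12 genes called in opposite directions, 8 raised by activation and 4 lowered by it. MEIS2 is on a log axis, all other panels start at 0, and in most panels the 2 groups of an arm do not overlap.

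The 6 genes that fell with activation and rose with knockout were FRZB, SLC7A8, CD74, IGFBP6, CHST7 and AFAP1L2. FRZB, a secreted antagonist of Wnt signalling, was at 10.8 to 12.3 CPM (median 11.6) in ctrl-OE and 8.54 to 9.24 (median 8.78) in MEIS2-OE, and at 5.41 to 8.06 (median 7.11) in ctrl-KO and 8.69 to 11.3 (median 9.11) in MEIS2-KO. Its groups were separate in both arms, with log2 fold changes of -0.38 ± 0.0776 (adjusted p = 0.00312) and 0.45 ± 0.0817 (adjusted p = 3.52e-04). CD74, the invariant chain of MHC class II, was at 33.5 to 39.4 CPM in ctrl-OE, 26.0 to 33.2 in MEIS2-OE, 7.53 to 11 in ctrl-KO and 12.6 to 14.3 in MEIS2-KO. It changed by -0.26 ± 0.0667 (adjusted p = 0.0291) and 0.49 ± 0.0756 (adjusted p = 3.99e-05). IGFBP6, which binds insulin-like growth factor 2, was scarce but had the largest effects of this class, -0.70 ± 0.18 (adjusted p = 0.032) and 0.95 ± 0.203 (adjusted p = 0.00194), with 2.19 to 3.81 CPM in MEIS2-OE against 3.88 to 6.52 in ctrl-OE and 2.97 to 4.63 in MEIS2-KO against 1.58 to 2.45 in ctrl-KO. SLC7A8, a transporter of large neutral amino acids, changed by -0.31 ± 0.0601 and 0.26 ± 0.0592 (adjusted p = 0.00131 and 0.0041), with overlapping activation groups. CHST7, a sulfotransferase of chondroitin chains, and AFAP1L2, an adaptor protein of SRC signalling, changed by -0.42 and -0.56 with activation (adjusted p = 0.0189 and 7.49e-05) and by 0.35 and 0.28 with knockout (adjusted p = 0.0177 and 0.0351). The sum of the arms passed for none of the 6 by the edgeR test, with unadjusted p under 0.05 for 2 of them, and for none by DESeq2. FRZB and SLC7A8 kept both calls in every refit.

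Genes that rose in both arms were about as many as those that rose with activation and fell with knockout, 30 against 28. PDLIM1, an adaptor of actin stress fibres, was at 22.1 to 26.0 CPM (median 23.9) in ctrl-OE and 30.0 to 36.8 (median 32.6) in MEIS2-OE, and at 28.1 to 38.3 (median 33.5) in ctrl-KO and 43.0 to 51.7 (median 48.4) in MEIS2-KO. Both arms were separate, with log2 fold changes of 0.47 ± 0.0651 (adjusted p = 5.5e-06) and 0.52 ± 0.0641 (adjusted p = 1.35e-06). TFPI2, an inhibitor of serine proteases of the matrix and of coagulation, changed by 0.52 ± 0.0811 and 0.50 ± 0.0809 (adjusted p = 5.19e-05 and 6.95e-05), from 84.2 to 101 CPM to 117 to 162 and from 105 to 124 CPM to 146 to 185. ANKRD1, an ankyrin repeat protein and a well-known target of YAP, had a wider spread, at 17.2 to 30.4 CPM in ctrl-OE, 37 to 70.4 in MEIS2-OE, 19.4 to 37 in ctrl-KO and 43.4 to 69.8 in MEIS2-KO. It changed by 0.95 ± 0.177 and 0.90 ± 0.176 (adjusted p = 7.87e-04 and 7.85e-04). CALD1, the actin-binding protein caldesmon, changed by 0.33 and 0.41 (adjusted p = 0.00226 and 6.55e-05) without overlap, the transcript AL832909 by 0.30 and 0.33 (adjusted p = 8.28e-04 and 1.24e-04), and PLK2, a polo-like kinase induced by p53, by 0.50 and 0.36 (adjusted p = 3.84e-06 and 7.03e-04), with 1 ctrl-KO library of PLK2 at 213 CPM, level with the lowest MEIS2-KO library.

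The other 24 genes raised in both arms included GREM1, an antagonist of BMP, with 0.96 and 1.58, DKK2, a regulator of Wnt signalling, with 0.67 and 0.87, the peptide ligand APLN with 1.08 and 0.65, and the VEGF receptor KDR with 0.36 and 0.42. The group also held CORO2B, NEFM, DLC1, ARRB1, ROBO3, ZDHHC9, SORBS2, CD34, NRP2, ENDOD1, CDC42EP3, PZP, SEC14L1, KIAA1161, KCTD10, FHL3, ITGA11 and EMP1. The median effects of the 30 genes were 0.41 with activation and 0.40 with knockout. The difference between the arms passed only for PTPRU, a receptor tyrosine phosphatase (adjusted p = 1.76e-06, edgeR quasi-likelihood test). It changed by 1.86 ± 0.126 with activation and 0.45 ± 0.132 with knockout. In all, 4 of the 30 had an unadjusted p under 0.05 for the difference by the same test. Groups were separate in both arms for 14 of the 30, beside 0.230% of all genes, but these too were chosen by their calls in the same libraries. PDLIM1, TFPI2, AL832909, PLK2, ANKRD1, CALD1, APLN, ITGA11 and ROBO3 kept both calls in every refit.

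The 7 genes lowered in both arms included none with separate groups in both arms and none that kept both calls in every refit. EPHA7, an ephrin receptor of axon guidance, was at 4.07 to 6.14 CPM (median 5.47) in ctrl-OE and 2.88 to 4.48 (median 3.79) in MEIS2-OE, and at 8.30 to 11.2 (median 10.1) in ctrl-KO and 6.11 to 9.40 (median 7.02) in MEIS2-KO. Its log2 fold changes were -0.54 ± 0.126 (adjusted p = 0.0115) and -0.47 ± 0.113 (adjusted p = 0.00553). PTPRZ1, a receptor phosphatase of radial glia, changed by -0.28 ± 0.068 and -0.24 ± 0.0676 (adjusted p = 0.0189 and 0.0193), and GCH1, which starts the synthesis of tetrahydrobiopterin, by -0.33 and -0.39 (adjusted p = 0.0198 and 0.0145). KIF24, RAB9B and CAMKV changed by -0.19 to -0.35 with activation and by -0.20 to -0.46 with knockout. HES5, a Notch effector of neural stem cells, was close to the detection limit, with 1 to 35 counts per library in ctrl-OE, 0 to 4 in MEIS2-OE, 11 to 17 in ctrl-KO and 2 to 11 in MEIS2-KO. Its calls (adjusted p = 0.0153 and 0.0357) rest on those few counts.

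**Figure D3:**
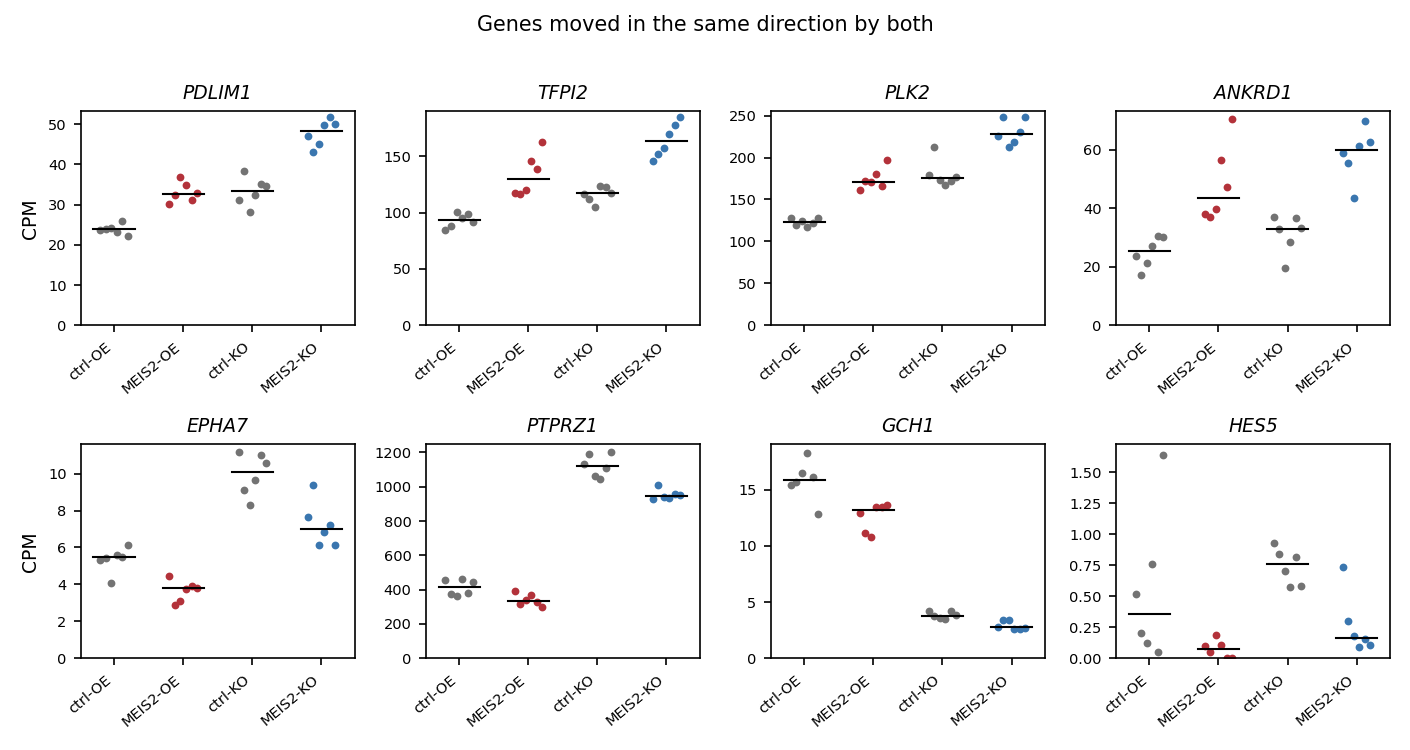
CPM in each of the 6 libraries per group (points, with the median as a black line) for 4 genes raised in both arms and 4 lowered in both. Each axis starts at 0, and the lowered genes overlap between groups of the activation arm, with HES5 below 1.7 CPM in every library.

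Of the 48 genes with the larger effect in activation, KCNS1 changed by more than MEIS2 itself. KCNS1, a modulatory subunit of voltage-gated potassium channels at chr20:43719855-43729768 (GRCh37, minus strand), went from 0.985 to 1.45 CPM (median 1.16) in ctrl-OE to 70.0 to 90.5 (median 79.7) in MEIS2-OE, or 6.07 ± 0.115 on the log2 scale (adjusted p = 1.07e-32). In the knockout arm it had 0 to 1 counts per library in ctrl-KO and 0 to 2 in MEIS2-KO, so a fall could not have been detected there. TMEM165, a Golgi membrane protein needed for glycosylation, was at 39.5 to 43.6 CPM (median 41.1) in ctrl-OE and 160 to 180 (median 173) in MEIS2-OE, which gave 2.05 ± 0.0452 on the log2 scale (adjusted p = 1.97e-30). Knockout left it at 40.01 to 45.4 CPM beside 38.7 to 46.1 in ctrl-KO (0.03 ± 0.0454, adjusted p = 0.775), and the arms differed (adjusted p = 1.15e-24). RASSF8, a RAS association domain protein, went from a median of 63.4 to 200 CPM (1.60 ± 0.066, adjusted p = 7.2e-21) with no library in between, and had a knockout effect of -0.15 ± 0.0658 (adjusted p = 0.155). PRRT4 and SUSD2, at medians of 1.29 and 1.72 CPM in ctrl-OE, changed by 2.34 and 2.78, and both had at most 12 counts in any library of the knockout arm.

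Some of the genes called by activation lie close together. A position was found for 244 of the 267, and 9 pairs among them lay within 100 kb. The pair TMEM132C and SLC15A4 changed in opposite directions (-0.358 and 0.225), and every other pair in the same direction. SRD5A3, which makes dolichol for glycosylation and changed by 0.86 ± 0.0467 with activation (adjusted p = 7.8e-17) and -0.10 ± 0.0477 with knockout (adjusted p = 0.174), ends 22856 bases before TMEM165 on the same strand of chromosome 4. RASSF8 overlaps its antisense transcript RASSF8-AS1, which changed by 1.02, and reads of the pair can be told apart only if strand was used in counting, which is not given in the sources used here. How often tested genes in general lie this close was not measured.

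The 4 lowered genes with the larger effect in activation included F13A1, PKNOX2 and LOC100506421. F13A1, the A subunit of coagulation factor XIII, was at 33.6 to 38.4 CPM (median 36.6) in ctrl-OE and 19.5 to 24 (median 21.8) in MEIS2-OE, or -0.73 ± 0.0586 on the log2 scale (adjusted p = 8.05e-12), and at 93.9 to 108 (median 100.3) in ctrl-KO and 97.3 to 120 (median 110) in MEIS2-KO (0.12 ± 0.0544, adjusted p = 0.15). PKNOX2, a TALE relative of MEIS2, changed by -0.33 ± 0.0536 (adjusted p = 1.04e-04) and -0.06 ± 0.0522 (adjusted p = 0.495), and LOC100506421 by -0.38 and -0.00 (adjusted p = 2.78e-04 and 0.986). The activation groups were separate for all 4.

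The raised genes with the larger effect in knockout were led by INPP5D, TP53I3, ACTA2, PROCR, DUSP14 and AK125437. INPP5D, the lipid phosphatase SHIP1, was at 25.6 to 29.6 CPM (median 28.5) in ctrl-KO and 36.9 to 41.1 (median 40.1) in MEIS2-KO, a log2 fold change of 0.50 ± 0.0496 (adjusted p = 3.4e-08), beside -0.10 ± 0.0486 with activation (adjusted p = 0.592). TP53I3, an oxidoreductase induced by p53, was at 92.3 to 103 CPM (median 97) in ctrl-KO and 129 to 140 (median 133) in MEIS2-KO (0.47 ± 0.05, adjusted p = 1.49e-07), and at medians of 102 and 103 CPM in ctrl-OE and MEIS2-OE (-0.02 ± 0.0498, adjusted p = 0.987). ACTA2, smooth muscle actin, went from 97.6 to 106 CPM in ctrl-KO to 132 to 151 in MEIS2-KO (0.49 ± 0.0528, adjusted p = 1.49e-07). PROCR, the endothelial receptor of protein C, changed by 1.44 ± 0.163 (adjusted p = 3.82e-07) from 0.294 to 0.720 to 1.31 to 1.81 CPM, which were 5 to 15 and 26 to 34 counts. DUSP14, a MAP kinase phosphatase, changed by 0.42 ± 0.048 (adjusted p = 4.01e-07), and the transcript AK125437 by 0.45 ± 0.0489 (adjusted p = 1.49e-07). The knockout groups of these 6 genes were separate and their activation groups were not.

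The lowered genes with the larger effect in knockout were led by ADAMTS3, WDR76, LRP11, CTCF, GSE1 and MCM6. ADAMTS3, a protease that processes VEGF-C and procollagen, was at 14 to 18.1 CPM (median 15.8) in ctrl-KO and 9.38 to 11.1 (median 9.99) in MEIS2-KO (-0.63 ± 0.0774, adjusted p = 1.35e-06), and changed by 0.04 ± 0.0805 with activation (adjusted p = 0.986). MCM6, a subunit of the replicative helicase, was at 316 to 369 CPM (median 327) in ctrl-KO and 240 to 276 (median 265) in MEIS2-KO (-0.34 ± 0.0501, adjusted p = 2.25e-05), and at medians of 217 and 212 in ctrl-OE and MEIS2-OE (-0.05 ± 0.0502, adjusted p = 0.97). CTCF, the insulator protein of chromatin loops, changed by -0.26 ± 0.0368 (adjusted p = 1.24e-05), WDR76 by -0.45 ± 0.0584 (adjusted p = 3.14e-06), LRP11 by -0.37 ± 0.052 (adjusted p = 1.09e-05) and GSE1 by -0.34 ± 0.0494 (adjusted p = 1.58e-05). Activation effects of these 4 lay between -0.11 and 0.09.

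**Figure D4:**
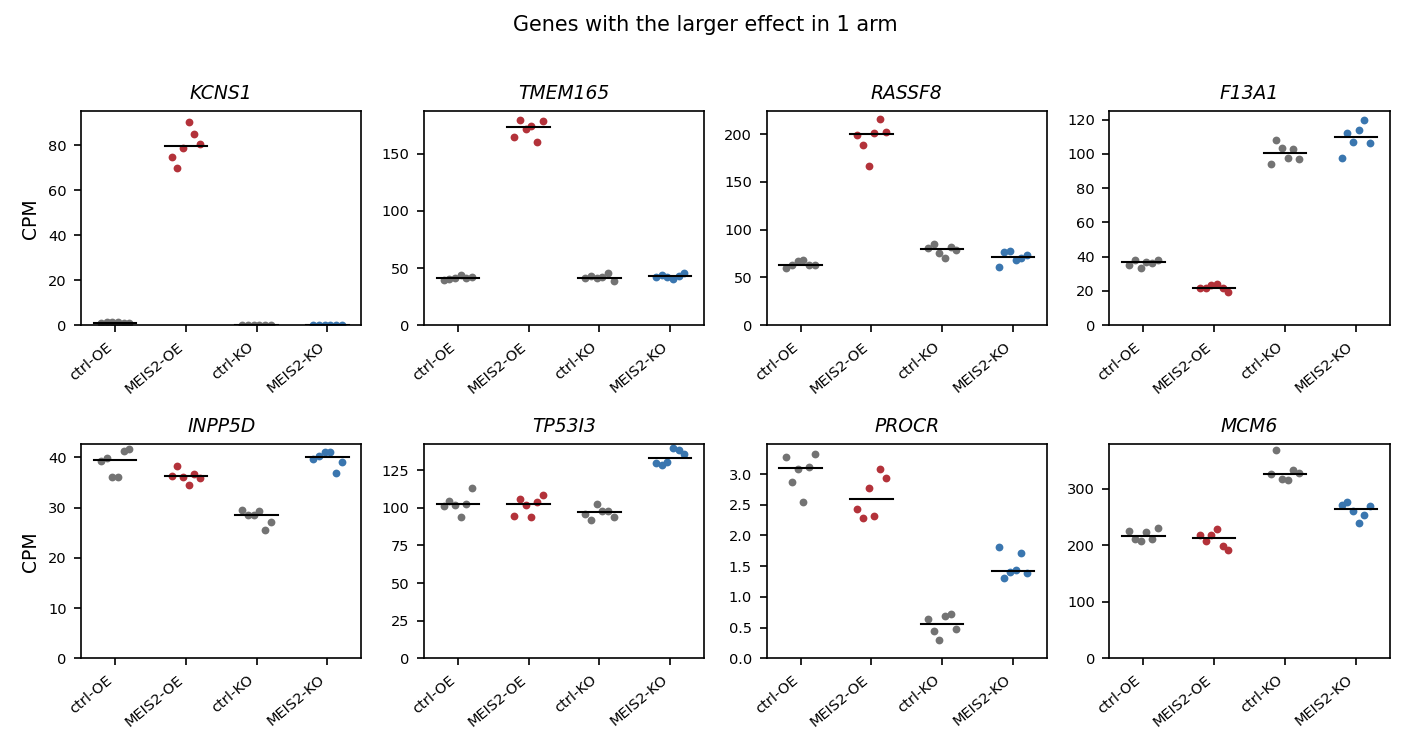
CPM in each of the 6 libraries per group (points, with the median as a black line, every axis from 0) for 4 genes with the larger effect in the activation arm (top) and 4 with the larger effect in the knockout arm (bottom). In each panel 1 pair of groups is separate and the other pair overlaps.

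Genes were also counted by lists of known function. In the list of p53 target genes, 26 of 35 tested members rose with knockout and none fell, with a median of 0.26, beside 4.22% of all genes raised and a median of -0.01. CDKN1A, the CDK inhibitor p21, changed by 0.52 ± 0.074 (adjusted p = 1.29e-05), XPC by 0.25 and GADD45A by 0.41 (adjusted p = 1.35e-06 and 2.81e-05). With activation 1 of the 35, PLK2, rose and none fell, with a median of 0.03, beside 1.11% of all genes raised by activation. The difference between the arms passed for 7 of the 35 by edgeR, each with the higher value in knockout, beside 1.27% of all genes, and for 10 by DESeq2. The summed level of the list was 5593 to 5901 CPM in MEIS2-KO and 4667 to 5086 in ctrl-KO, without overlap, and 4210 to 4422 in MEIS2-OE and 4089 to 4303 in ctrl-OE. In MEIS1-KO, whose guides also cut and which shares ctrl-KO, 12 of the 35 rose and none fell, with a median of 0.24, beside 1.08% of all genes raised in MEIS1-KO. In MEIS1-OE, which shares ctrl-OE, 5 of the 35 rose and none fell (median 0.09), beside 1065 of all 19125 genes raised. Without the libraries numbered 5 the 26 raised genes became 17, and 2 passed the fold limit of 0.58. Whether DNA cutting has a part in these values was not tested.

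In the list of DNA replication genes, 12 of 21 members fell with knockout and none rose (median -0.15), beside 6.27% of all genes lowered, and none of the 21 was called with activation (median -0.07, 3 at an unadjusted p under 0.05 by edgeR, none called by DESeq2). The difference between the arms passed for 1 of the 21, beside 2.73% of all genes. Without the libraries numbered 2 the 12 lowered genes became 6, and none passed the fold limit of 0.58. MCM4 and POLA1 changed by -0.17 and -0.33 (adjusted p = 3.18e-04 and 9.15e-04). Of the 20 mitosis genes, 6 fell with knockout, MKI67 among them (-0.33, adjusted p = 8.20e-04), and 1, KIF20A, fell with activation (-0.23, adjusted p = 0.00984), and the difference between the arms passed for none of the 20 by edgeR (5 at an unadjusted p under 0.05) or by DESeq2. Among 8 CDK inhibitor genes, CDKN2C moved in opposite directions as given above. CDKN1A (p21) and CDKN2B rose and CDKN1B fell with knockout (0.52, 0.80 and -0.27), beside 4.22% of all genes raised and 6.27% lowered. Their activation effects lay between -0.03 and 0.02 and did not pass. The difference between the arms passed for 2 of the 8, CDKN2C and 1 with the higher value in knockout, beside 2.73% of all genes. It thus did not pass for CDKN1B, and of CDKN1A and CDKN2B it passed for at most 1.

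Of 22 wound healing and coagulation genes, 11 rose with knockout and none fell, beside 4.22% of all genes raised by knockout and 1.11% by activation. Among them were the hyaluronan receptor CD44 (0.94, adjusted p = 5.24e-06) and PLAU, urokinase (0.86, adjusted p = 2.40e-05). Of the 11, 6 passed the fold limit of 0.58. With activation 3 rose (TFPI2, THBS1 and PDGFA) and 1 fell (F13A1), and the difference between the arms passed for 6 of the 22, beside 2.73% of all genes. Of 34 extracellular matrix genes, 7 rose with knockout and 2, COL4A1 and LAMA4, with activation (0.36 and 0.42, adjusted p = 0.0044 and 0.01), and the difference passed for 3. Of 9 mesenchymal markers, 4 rose with knockout (ACTA2, TAGLN, COL1A1 and COL1A2) and none was called with activation, also at an unadjusted p under 0.05 by edgeR or by DESeq2. The difference passed for 2 of the 9. Their summed level was 1206 to 1617 CPM in MEIS2-KO and 946 to 1256 in ctrl-KO, overlapping, and 660 to 887 and 648 to 932 in MEIS2-OE and ctrl-OE. In bulk RNA more cells of a type and more RNA per cell cannot be told apart. Endothelial and blood markers gave 3 raised members of 8 with knockout and 2 with activation, KDR and CD34 being raised in both, and the difference passed for none of the 8 by edgeR (2 at an unadjusted p under 0.05, 1 by DESeq2). Their summed level was 207 to 255 CPM in MEIS2-KO and 171 to 187 in ctrl-KO, and 132 to 174 in MEIS2-OE and 109 to 137 in ctrl-OE. The part of these markers and of the mesenchymal ones in the other results was not tested.

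Of 17 tested neural stem cell markers, 7 fell with knockout, including PAX6 (-0.52, adjusted p = 6.88e-04), SOX1 (-0.33, adjusted p = 0.0157) and FABP7 (-0.36, adjusted p = 0.00445), and 1, VIM, rose (0.33, adjusted p = 0.00115), beside 6.27% of all genes lowered and 4.22% raised by knockout. With activation HES5 alone was called. The difference between the arms passed for none of the 17 by the edgeR test (8 at an unadjusted p under 0.05, 2 by DESeq2), so these effects are not shown to be particular to knockout. Without the libraries numbered 4 or 5 the 7 lowered markers became 3, and 1 passed the fold limit of 0.58. No neuronal or glial marker was called with activation (1 and 4 of 14 at an unadjusted p under 0.05 by edgeR, none by DESeq2). With knockout GAP43 rose and SYP and DCX fell among 14 neuronal markers, and CSPG4 rose and SLC1A3 fell among 14 glial markers. None of the 4 tested pluripotency markers was called in either arm, with 0 and 1 at an unadjusted p under 0.05.

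In the list of TALE genes the arms touched different members apart from MEIS2. Activation raised PKNOX1 (0.45, adjusted p = 2.00e-06) and lowered PKNOX2, and neither was called with knockout. Knockout lowered PBX2, PBX3 and TGIF2 by 0.15, 0.21 and 0.13 on the log2 scale (adjusted p = 7.04e-04, 0.0124 and 0.0181), and none of these passed with activation. The difference between the arms passed for MEIS2, PKNOX1, PKNOX2 and PBX2 of the 11 genes, beside 2.73% of all genes.

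Among 17 tested genes of the lateral ganglionic eminence and striatum, 3 rose with activation and none fell, beside 1.11% of all genes raised. CALB2, the calcium-binding protein calretinin, rose by 3.16 (adjusted p = 3.17e-12), CALB1, calbindin, by 0.48 (adjusted p = 7.37e-05) and FOXP2 by 0.43. Knockout lowered FOXP2, FOXP1 and EBF1 by 0.44, 0.26 and 0.39 on the log2 scale (adjusted p = 9.85e-04, 0.00449 and 0.00215) and raised none, beside 6.27% of all genes lowered. The difference between the arms was positive and passed for 5 of the 17, beside 1.46% of all genes. These were the 5 genes called in an arm, although FOXP1 and EBF1 had activation effects of 0.10 and 0.24 that did not pass (adjusted p = 0.823 and 0.35). The list medians were 0.05 and 0.01, and GSX2, DLX5, DLX6, SP8 and DRD1 were under the count limit.

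In the retinoid list activation raised CYP26A1, which degrades retinoic acid (2.29, adjusted p = 3.48e-07), LRP2 and RDH10, and lowered CRABP2 and STRA6, while knockout raised RARG and lowered none of 19. For the counts in this paragraph, the shares over all genes were 1.11% raised and 0.288% lowered by activation and 4.22% raised and 6.27% lowered by knockout. In the Notch list activation raised the target genes HEY1 and HEYL (1.32 and 0.94, adjusted p = 6.03e-08 and 2.92e-06) and lowered HES5, and knockout lowered 5 of 26, HES5, MFNG, MAML3, DTX4 and RBPJ, and raised LFNG (0.44, adjusted p = 0.0187). HEY1 and HEYL differed between the arms (adjusted p = 2.07e-04 and 0.00598). In the list of axon guidance and Eph genes, activation raised 4 and lowered 1. SEMA6A and EPHA4 rose with activation (0.65 and 0.90, adjusted p = 4.15e-12 and 1.82e-08) and had knockout effects of -0.15 and -0.22 (adjusted p = 0.0508 and 0.132). NRP2 (0.43 and 0.20) and ROBO3 (0.44 and 0.32) rose and EPHA7 fell in both arms, and in all 6 of 41 rose and 7 fell with knockout. Of 29 BMP and TGF-beta genes, activation raised GREM1 and ACVR1, and knockout raised 3 and lowered 6, among them BMPR1B and SMAD9 (-0.42 and -0.87). Of 20 FGF-ERK feedback genes, knockout raised SPRY4, SPRED3, ETV4 and IL17RD and lowered SPRY2 and SPRED1, and activation raised SPRY2, SPRED1 and SPRY1. Immediate early genes had 5 of 22 raised and 1 lowered with knockout. Interferon-stimulated genes had 2 raised and 2 lowered of 30 with knockout, and only this list was near the shares over all genes. In both lists activation gave no call by edgeR and 3 genes each at an unadjusted p under 0.05, with 1 immediate early gene called by DESeq2.

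**Figure D5:**
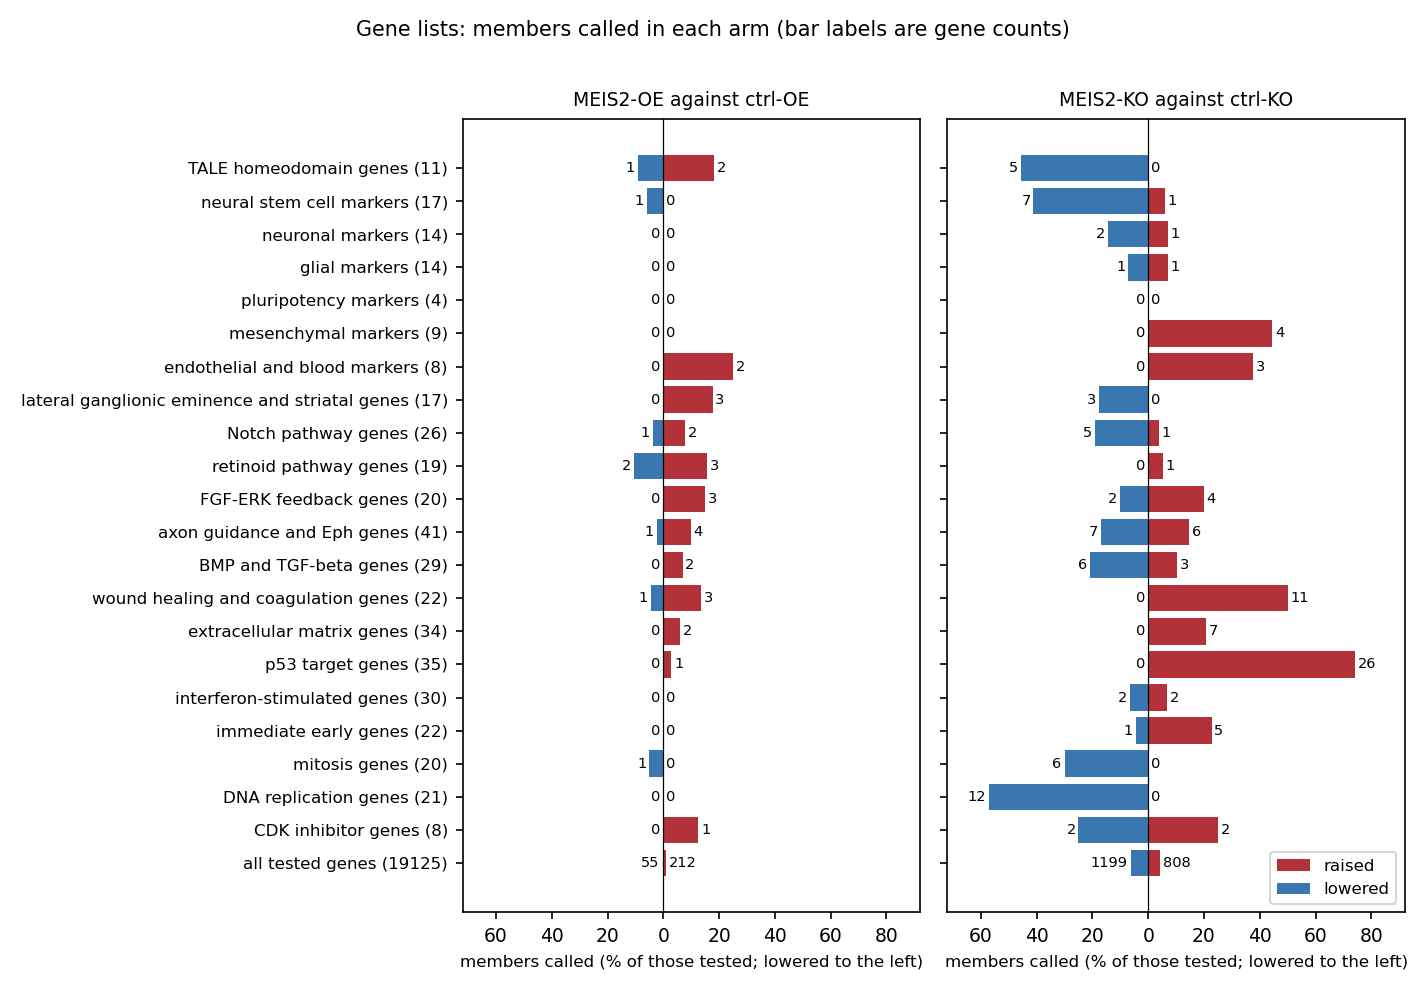
Share of the tested members of each list that were called higher (red, to the right) or lower (blue, to the left) in each arm, with gene counts at the bars and the number of tested members in parentheses after the list name. The last row gives all 19125 genes, and knockout called 26 of 35 p53 targets higher, 12 of 21 DNA replication genes lower and 11 of 22 wound healing genes higher, while no list has more than 4 raised members in the activation arm.

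The MEIS1 arms, which use the same control libraries, gave 1774 genes called in MEIS1-OE and 293 in MEIS1-KO (9.28% and 1.53%). Both called 79 genes, of which 17 rose in MEIS1-OE and fell in MEIS1-KO, 8 did the reverse, 43 rose in both and 11 fell in both. For ST8SIA4, BAALC, KIT, SPOCK1 and SPRY2 the MEIS1-OE effects were 0.63, 0.92, 0.71, 0.94 and 0.46 and the MEIS1-KO effects -0.29, -0.32, -0.33, -0.22 and -0.21, with calls in both arms except for SPOCK1 in MEIS1-KO (adjusted p = 0.086). Tested directly, the activation effect minus the knockout effect did not pass as different between MEIS2 and MEIS1 for these 5 genes (adjusted p between 0.403 and 0.891), which does not show that they are equal. CDKN2C and HK2 did differ (adjusted p = 1.17e-21 and 1.91e-09), and in MEIS1-OE they changed by -0.95 and -0.38. KCNS1, TMEM165 and RASSF8 had MEIS1-OE effects of -0.03, -0.02 and 0.03 (adjusted p = 0.949, 0.896 and 0.883) and also differed from MEIS2 (adjusted p = 9.41e-08, 2.19e-25 and 6.5e-17).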

How the data were processed

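RNA was measured in 36 libraries of human neural stem cells, of which 24 are compared here. Per the study's methods, stranded poly(A) libraries were sequenced as paired reads of 100 bases, aligned to hg19 and counted per gene. The submitters' processing notes name Trimmomatic 0.39 and STAR 2.7.0a, and whether counting used strand is not given in the sources used here. The authors deposited raw counts per gene, which were used as deposited.

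Counts were fitted with edgeR 4.0.16 (R 4.3.3, limma 3.58.1), with TMM scaling and the quasi-likelihood test over all 6 groups of the series, which share 1 estimate of the spread. Genes needed 10 counts summed over the 24 libraries. Benjamini-Hochberg adjustment ran over 19125 genes, with calls at an adjusted p under 0.05. Log2 fold changes used a prior count of 0.125. CPM were computed from counts and TMM-scaled library sizes. The step was tested on simulated data (18847 genes). Of 50 genes seeded at a log2 fold of 0.58 in opposite directions 41 were recovered, and of 50 in the same direction 44. The simulation used 1 fixed spread, and very scarce genes were not seeded. No smaller fold was seeded, so the recovery of smaller effects was not measured. Of the 71 genes called in both arms here, 12 passed that fold in both.

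Total counts were 15429985 to 22940493 per library, and replicates rather than counting set the error. The main fit has no replicate block. Genes were named by rule: MEIS2, MEIS1, the 12 genes per opposite direction and the 6 per same direction with the smallest larger p of the arms, the 6 raised and 6 lowered of each 1-arm class with the smallest p, and called list members. Further class members and neighbouring genes were chosen after their values were seen. The comparison, the lists and the rule were chosen with earlier results of these data known. Alternatives were RLE scaling, other filters, a larger prior count, a replicate block, the 24 libraries alone, leaving out each replicate number, DESeq2 1.42.0, leaving out 2 control libraries (chosen after seeing the data), stricter thresholds and other correlation measures. Guide positions were found in GRCh37, and promoter sequences come from RefSeq tables of GRCh38.p14. Some genes are not reported here by name.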

Additional observations from a re-analysis of the deposited data

Results flagged for a closer look

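In 212 groups of 6 libraries, 12 had a highest or lowest library whose gap to the nearest other library, as a share of the group's range, was above Dixon's critical value. Chance flags about 1 in 20 groups. In ctrl-OE, MEIS1 was at 15.7 CPM in replicate 3, beside 18.0 in the next library. Replicate 6 of ctrl-OE was the highest for SPRY2 at 140.0 CPM (next 124), for CHST7 at 14.2 (next 10.9) and for SUSD2 at 3.05 (next 2.01). Replicate 2 of ctrl-KO was the highest for AL832909 at 61.5 CPM (next 55.0), PLK2 at 213 (next 179), LOC100506421 at 112 (next 94.9) and MCM6 at 369 (next 333). Replicate 3 of ctrl-KO was at 0.294 CPM for PRRT4 (next 0.169), which is a difference of a few counts. In MEIS2-OE, AL832909 was at 67.2 CPM in replicate 4 (next 59.2) and PRRT4 at 7.67 in replicate 6 (next 6.48). In MEIS2-KO, SLC7A8 was at 86.6 CPM in replicate 4 (next 78.8). The groups did not overlap in spite of these libraries for SPRY2, AL832909, PRRT4 and SUSD2 in the activation arm. The same held for AL832909, SLC7A8 and MCM6 in the knockout arm.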

How the results depend on the processing

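MEIS2 kept its direction and call in both arms under every alternative, at 5.17 to 5.20 for activation and -1.12 to -1.05 for knockout when each replicate number was left out. Leaving out each number in turn gave 164 to 249 activation calls, 956 to 2029 knockout calls, 231 to 496 calls of the difference and 510 to 1046 of the sum. The opposite classes then held 12 to 28 and 2 to 7 genes, the same-direction classes 11 to 26 and 0 to 11, and the genes with the larger effect in knockout 41 to 109. The correlation of the arms lay between -0.0153 and 0.0101. The lowest counts came without number 5 for knockout (956) and without 4 or 5 for activation (164), and the cause was not tested beyond the loss of samples.

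The deviations of same-numbered libraries had a mean r of 0.0284, with 7 of 36 pairs above 0.1 and a mean of 0.108 for the number with the highest, so the libraries were taken to share only a number. With a replicate block, which pairs libraries by number, 308 and 2436 genes were called, 10 genes fell with activation and rose with knockout, 46 rose in both arms and 211 had the larger effect in knockout. With the 24 libraries alone the difference passed in 835 genes and 242 had the larger effect in knockout. At an absolute log2 fold change above 0.58, 98, 314, 198 and 339 genes passed for activation, knockout, difference and sum, the opposite classes held 3 and 1, the same-direction classes 7 and 1, and the larger effect was in activation for 31 and in knockout for 51. At an adjusted p under 0.01 the numbers were 169, 838, 227 and 445, then 15 and 2, 14 and 0, and 40 with the larger effect in knockout. The correlation was 0.0653 with edgeR's filterByExpr (15194 genes), 0.0285 with a prior count of 2, 0.00738 as Spearman's rho and 0.115 over genes called in either arm. Without replicate 6 of ctrl-OE and replicate 2 of ctrl-KO, an alternative chosen after seeing the data, 2 genes fell with activation and rose with knockout and 4 fell in both arms. The cause of these shifts was not tested.

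The effects that changed sign were near 0 and had no call. LOC100506421 in the knockout arm was at 0.00858 with RLE scaling, 0.00254 with filterByExpr, 0.00846 with DESeq2 and between -0.0368 and 0.0565 when a number was left out. ACTA2 in the activation arm was at -5.16e-06 with RLE, -6.58e-05 with DESeq2 and between -0.0248 and 0.0334 when a number was left out. The same refits gave ranges that include 0 in the activation arm for ADAMTS3 (-0.00436 to 0.0856), LRP11 (-0.0397 to 0.00461), DUSP14 (-0.00458 to 0.0198) and AK125437 (-0.0458 to 0.00752) and in the knockout arm for TMEM165 (-0.0135 to 0.0561). Without the 2 control libraries LOC100506421 in the knockout arm was at 0.0469, and in the activation arm TP53I3 was at 0.0083, ACTA2 at -0.00642, LRP11 at 0.00291 and CTCF at -0.00088. Of the other values of single genes, 2331 stayed on their side of the threshold, 1 gained a call and the rest lost one. RLE scaling moved the share of knockout calls that were higher from 40.3% to 48.6%. The alternatives for list counts were chosen after seeing the data. Depth limits the scarce genes: KCNS1, PRRT4, SUSD2 and HES5 rest on few counts in at least 1 group.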
